A study of Mus musculus with 8 samples.

Results

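Spi1 encodes PU.1, and the chromatin loops of its promoter were followed here through H3K27ac HiChIP of HPC-7, a blood progenitor cell line of the mouse. The authors' caller joined bins of 5 kb, and a pair that it listed at a q-value under 0.01 is called a loop. A loop was counted as an Spi1 promoter loop when 1 of its bins held the start site of the canonical Spi1 transcript, and all other loops with both bins within 150 kb of that bin were described with them. The 4 deposited lists held 214313 different loops in all, of which 14 were Spi1 promoter loops and 123, these 14 included, lay in the 150 kb window. HPC-7 cells carried either the p30 or the p42 isoform of CEBPA and were left untreated (UT) or exposed to lipopolysaccharide (LPS) at 100 ng/mL for 2 h. Each of the 4 groups had 2 replicates, 8 libraries in all, and each group was deposited as 1 list in which the replicates are pooled. Per the study's methods, the HPC-7 lines came from retroviral transduction with a vector that also carries GFP and from sorting for GFP, so that both groups hold a CEBPA transgene on top of very low endogenous CEBPA. In the methods, the names p30 HPC-7 and p42 HPC-7 stand for isoforms fused to ERT2, whose entry into the nucleus is induced with 4-hydroxytamoxifen, and separate lines without the fusion are called constitutive. The labels of the HiChIP samples give HPC-7 and the isoform without the word constitutive, and that these were the ERT2 lines is inferred from the names alone. There was no HiChIP group without a transgene, so p30 and p42 were compared with each other only.

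PU.1 is an ETS family transcription factor that directs progenitors towards the myeloid and lymphoid lineages. In mouse cells its gene is controlled by an upstream regulatory element (URE) located about 14 kb before the start site, which is known to contact the promoter and to be bound by RUNX, ETS and C/EBP factors. H3K27ac marks active promoters and enhancers. HiChIP counts ligation products (contacts) enriched for regions that carry the mark, whose partner regions need not carry it.

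Spi1 (ENSMUSG00000002111.11) lies on the plus strand of chromosome 2, with its canonical transcript at chr2:90926441-90946101 (GRCm39, the assembly behind mm39). Its start site fell into the bin chr2:90925001-90930000. The position 14 kb upstream fell into the bin chr2:90910001-90915000, which begins 15 kb before the start-site bin and is called the URE bin below. The files do not mark the borders of the element itself. According to GENCODE M39, the URE bin also holds the first exons of 3 further Spi1 transcripts and the single exon of the non-coding gene Gm74878, so its contacts with the start-site bin lie within the Spi1 gene as annotated.

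The reference sequence of the URE bin is shown for the stretch of 300 bases that holds the most matches of 3 letter patterns of the factors named above, TGTGGT (RUNX), AGGAAG (ETS) and TTGCNNAA (C/EBP), searched on both strands. The second sequence holds 30 bases of the first Spi1 exon, where an ETS and a C/EBP pattern lie closest to each other. Both are given on the plus strand, 5′ to 3′, with the matches in capitals.
URE bin, chr2:90913249-90913548: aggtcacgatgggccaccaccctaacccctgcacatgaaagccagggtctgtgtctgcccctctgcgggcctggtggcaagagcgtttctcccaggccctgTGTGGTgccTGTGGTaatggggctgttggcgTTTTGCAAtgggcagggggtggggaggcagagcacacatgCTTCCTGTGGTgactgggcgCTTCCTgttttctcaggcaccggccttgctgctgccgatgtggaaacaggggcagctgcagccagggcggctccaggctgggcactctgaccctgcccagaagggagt
First exon, chr2:90927010-90927039: CTTCCTgtagcgcaagagatTTATGCAAac
In the URE stretch, TGTGGT occurred 3 times, AGGAAG 2 times and TTGCNNAA 1 time, and 1 AGGAAG match overlapped a TGTGGT match by 1 base. These matches lay between -13091 and -13000 bases from the start site, and those of the first exon began 569 and 589 bases after it, in the 5′ untranslated region. Of all 501136 windows of 300 bases in the 31321 peak bins common to the 4 lists, 23.4% held TGTGGT, 33.5% AGGAAG and 10.8% TTGCNNAA. Windows of 30 bases held AGGAAG in 3.62% and TTGCNNAA in 0.905% of cases. A stretch of 300 bases with 6 or more matches of the 3 patterns was found in 9.47% of those bins, whose median was 3. The AP-1 pattern TGANTCA had 1 match in the whole URE bin, as many as the median peak bin, and none in either sequence shown. A match is a description of the letters and does not show that a factor was bound.

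The lists held 80489 loops in untreated and 94609 in LPS-treated p30 cells, and 158233 and 78591 in the p42 cells, from 14503330 to 18999991 modelled contacts per list. The p42 UT list stood apart by its length, and its counts of loops below have to be read with that length. Start sites of all 10 stem and progenitor markers examined (such as Kit, Gata2 and Cd34) had loops in all 4 lists, whereas 6 of 16 markers of other lineages had a loop in any list and 3 (Cd79a, Adgre1 and Cd14) in all 4. Globin, T cell and collagen start sites had none. The lists pool the replicates, so that no spread between replicates could be measured here. All tests below are exact tests on counts that compare those pooled libraries, not the conditions, and all intervals are 95% intervals of counting error only.

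Spi1 had 6 promoter loops in untreated and 7 in LPS-treated p30 cells, and 11 and 10 in the p42 cells. The median gene with any promoter loop had 3, 3, 5 and 3. Of the 8093, 8423, 9744 and 7628 genes with a promoter loop, 1699, 1825, 1815 and 627 had more loops than Spi1. With the lists shortened to the same length by q-value, the Spi1 counts became 6, 7, 7 and 10. The higher number in p42 UT thus moved with the list's length. The p42 LPS list is the shortest and set this length, so its own count of 10 was not put to the check. In all, 5 partner bins were found in every list, each of them upstream, at 30, 25, 20, 15 and 10 kb before the start-site bin. The adjacent bins could not be seen, since the lists hold no pair closer than 10 kb.

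The URE bin was joined to the start-site bin by 199 contacts in untreated and 174 in LPS-treated p30 cells, and 361 and 221 in the p42 cells. The p42 UT count was the highest by far, and the other 3 counts lay close together. From the distance and the coverage of both bins, the caller expected 35.7, 26.9, 47.1 and 35.7 contacts. Observed contacts thus exceeded expected ones 5.58 times (4.83 to 6.41) in untreated p30 cells and 6.46 times (5.54 to 7.50) after LPS. In p42 cells they did so 7.66 times (6.89 to 8.49) untreated and 6.20 times (5.41 to 7.07) after LPS. The intervals of p30 UT and p42 UT did not overlap, whereas both LPS lists lay between them and overlapped each of the others. Among loops that span 15 kb, the URE loop ranked 8th of 7059 (UT) and 9th of 9748 (LPS) by contacts in p30 cells, and 5th of 14349 and 4th of 7271 in the p42 cells. It was among the strongest loops of its length in all 4 lists.

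The bin 10 kb upstream lies between the URE bin and the promoter, in an intron of the transcripts that start in the URE bin. It had 183 contacts in untreated and 189 in LPS-treated p30 cells, and 363 and 234 in the p42 cells, at 2.74, 3.38, 3.80 and 3.07 times the expected count. Its count was lower than that of the URE bin in p30 UT and as high or higher in the other 3 lists, its ratios were lower in all 4, and the expected count was larger at this shorter distance.

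The bin 25 kb upstream holds the start site of Slc39a13, a zinc transporter gene on the opposite strand. It had 98 contacts in untreated and 100 in LPS-treated p30 cells, and 158 and 127 in the p42 cells. Its ratios to the expected count of 9.70, 12.66, 12.12 and 12.04 were the highest of all Spi1 promoter loops in each list. The intergenic bin 20 kb upstream had 103, 84, 166 and 113 contacts (ratios 6.55, 7.02, 8.15 and 6.74). The bin 30 kb upstream, which overlaps Slc39a13 and the end of its neighbour Psmc3, had 47, 33, 45 and 35 contacts (ratios 6.64, 6.01, 5.48 and 5.01). The contacts of the promoter thus reached upstream past the URE bin to the next gene in all 4 lists. The 5 shared loops together held 630 contacts in untreated and 580 in LPS-treated p30 cells, and 1093 and 730 in the p42 cells. The URE bin took 31.6%, 30%, 33.0% and 30.3% of them, shares whose intervals overlapped in all 4 lists.

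**Figure D1:**
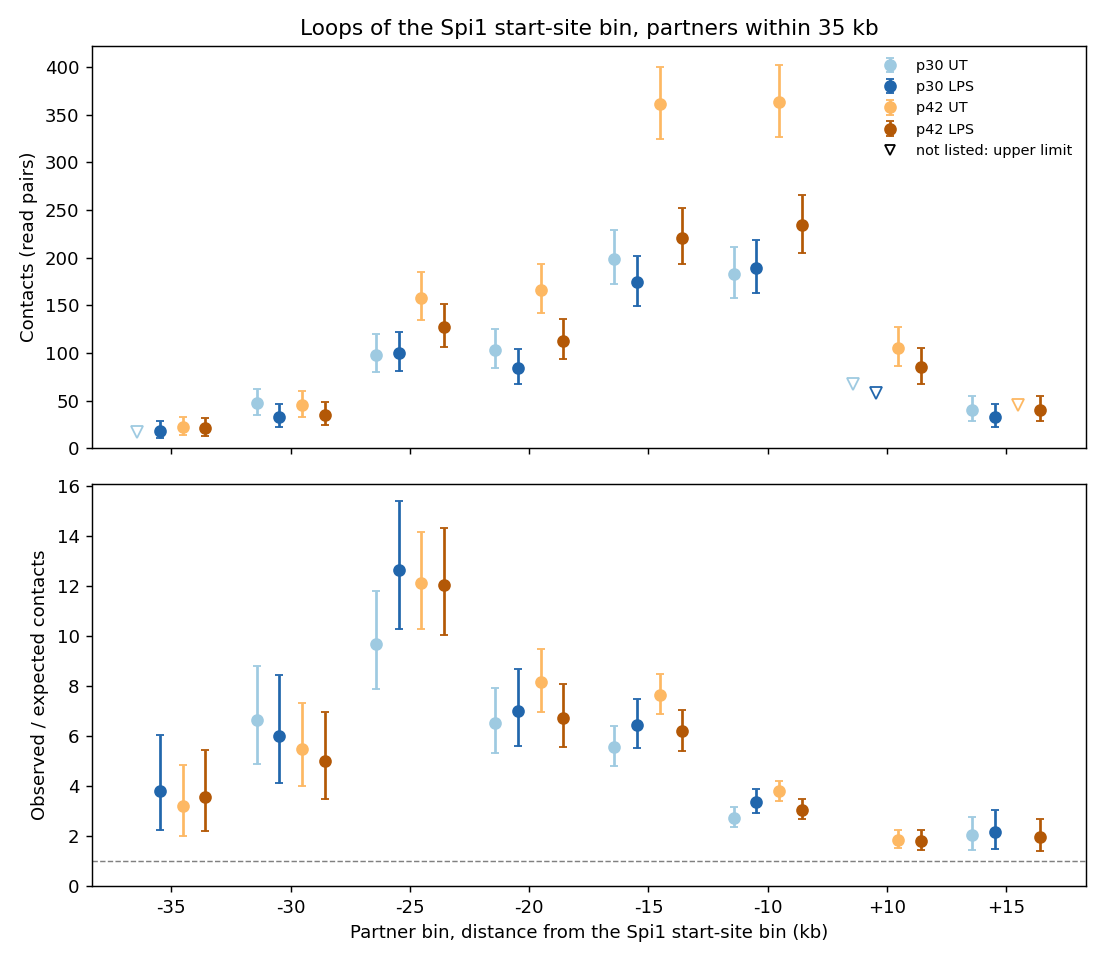
Contacts (top) and observed over expected contacts (bottom) of the Spi1 start-site bin with 8 partner bins, by distance in kb, for 1 pooled list per group; bars are 95% Poisson intervals and open triangles the highest count a pair absent from a list can have had. Contacts peaked at the bins 15 and 10 kb upstream, with p42 UT at 361 and 363, and the ratio peaked 25 kb upstream.

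The remaining 9 partners were found in 1 to 3 lists. A list holds significant pairs only, and a pair that it does not hold may still have had contacts. The caller's expected count could be recovered for 12 of the 22 absent pairs, and with it the highest count that would have stayed unlisted. Inside Spi1, the intronic bin 10 kb downstream had 105 contacts in untreated and 85 in LPS-treated p42 cells and was absent from both p30 lists, where at most 67 (UT) and 58 (LPS) contacts can have been present. The p42 counts were 1.85 and 1.81 times their expected counts of 56.8 and 46.9, and the p30 limits belong to lower expected counts of 41.4 and 34.6. A pair had to exceed such a limit to be listed at all, so these values do not show a difference between the isoforms. The bin 15 kb downstream, with exons 3 and 4 of the canonical transcript, had 40 contacts in p30 UT, 33 in p30 LPS and 40 in p42 LPS. It was absent from p42 UT, where up to 45 contacts would not have been listed, so this absence does not show fewer contacts. The bin 35 kb upstream had 18 contacts in LPS-treated p30 cells and 22 (UT) and 21 (LPS) in p42, with a limit of 17 in p30 UT.

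The other 6 partners were in 1 list each, and all of these were p42 lists. In p42 UT they were bins 90, 95, 100 and 115 kb downstream, with 15, 16, 11 and 11 contacts, which overlap Nr1h3, the gene of the nuclear receptor LXR alpha, or Acp2 and Ddb2; the bin at 100 kb holds the Nr1h3 start site. In p42 LPS they were the bin 40 kb downstream, with 15 contacts, and the bin 140 kb downstream, which holds the start site of the DNA repair gene Ddb2, with 12. Where a limit could be computed for another list, it was between 8 and 14 contacts, close to the counts of 11 to 16 in the lists that held these loops. None of them was in a list of both isoforms, so no such loop was tested.

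The isoforms were compared first in untreated cells, which asks whether the Spi1 promoter is contacted differently in p30 and p42 cells before any stimulus. All 5 loops found in both lists were tested, and 2 of them held more contacts in p42 than the other loops of these lists would give. Of the contacts of the URE loop in both lists, p42 held 64.5% (60.3 to 68.4), against 56.3% over all 59069 loops tested (exact binomial test, two-sided, adjusted p = 0.0119). For the loop 10 kb upstream the share was 66.5% (62.4 to 70.4), with an adjusted p of 0.000449 in the same exact test. These are differences of 0.50 and 0.62 on the log2 scale beyond the shift of all loops. Over all loops tested, 1.34% were called in either direction. Most loops of these lengths held fewer contacts, with medians of 37 (p30 UT) and 39 (p42 UT) at 15 kb. At 10 kb the medians were 58 and 65. The test detects smaller differences at higher counts, so the 1.34% is not a share at like counts. The loops 25 and 20 kb upstream had p42 shares of 61.7% each and the loop 30 kb upstream had 48.9%, and none of these passed the test (exact adjusted p = 0.669, 0.634 and 0.809). Of the 5 loops, 4 leaned towards p42 and the most distant one did not. With the modelled contacts of each list as the null (51.4% for p42), these 4 loops were called, as were 5.09% of all loops.

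Another null took the coverage of the bins into account. When the null share of each loop was taken from the caller's expected counts, which follow the coverage of both bins, p42 was given 56.9% of the URE loop and 58.8% of the loop 10 kb upstream. Neither loop was called against that share (exact adjusted p = 0.0621 and 0.0584), and 0.406% of all loops were. Summed over the 5 loops, p42 held 63.4% of the contacts (61.1 to 65.7), above both its 57.6% of the expected counts and its 57.5% of the contacts of the loops found in all 4 lists. The difference at these 2 loops kept its direction against the expected counts, and its size was 0.46 and 0.47 on the log2 scale.

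Under LPS, all 7 loops found in both lists had p42 shares of 51.5% to 57.4%, above the 49.1% of all 46110 loops tested. None was called (lowest exact adjusted p = 0.278, for the URE loop), 4 had an unadjusted p under 0.05, and 0.742% of all loops were called. The URE loop had a p42 share of 55.9% (50.9 to 60.9). Against the caller's expected counts, the direction turned for all 7 loops, which lay 0.06 to 0.26 below the null on the log2 scale. With that null 0 of the 7 were called, 0 had an unadjusted p under 0.05, and 0.0412% of all loops were called. Under LPS these 7 loops thus lay above the share of all loops and below the share of their own expected counts.

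LPS was then compared with UT within each isoform. In p30, LPS held 41.3% to 50.8% of the contacts of the 6 loops found in both lists, around the 49.2% of all 47004 loops, and 46.6% of those of the URE loop (41.5 to 51.9). No loop was called and none had an unadjusted p under 0.05 (all exact adjusted p = 1), against 0.317% of all loops. In p42, LPS held 38.0% to 48.8% of the contacts of 7 loops, around the 41.9% of all 59847 loops. The URE loop had the lowest share, 38.0% (34.0 to 42.1, exact adjusted p = 0.867). No loop was called here either, with 0 at an unadjusted p under 0.05 and 0.296% of all loops called. With the expected counts as the null, 0 of the 6 loops in p30 and 0 of the 7 in p42 were called, with 1 and 2 at an unadjusted p under 0.05, against 0.0532% and 0.0652% of all loops. A change of these loops with 2 h of LPS was thus not detected by these tests in either isoform. With the modelled contacts of each list as the null, which leaves in the shift of all loops, the URE loop was called lower with LPS in p42 (exact adjusted p = 0.0269), as 1 of 7 promoter loops against 1.47% of all loops.

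The change with LPS was compared between the isoforms by an exact conditional test of the ratio of ratios for the 31032 loops in all 4 lists. For the URE loop, the change in p42 differed from that in p30 by 0.01 on the log2 scale beyond the difference of all loops (exact adjusted p = 1). The 5 Spi1 loops had differences of -0.16 to 0.67, 0 of them were called and 0 had an unadjusted p under 0.05, while 0.0354% of all loops were called. Against the expected counts, the URE loop differed by -0.52 and the loop 10 kb upstream by -0.61 (exact adjusted p = 0.199 and 0.103). Both had an unadjusted p under 0.05, 0 of the 5 were called, and 0.773% of all loops were.

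**Figure D2:**
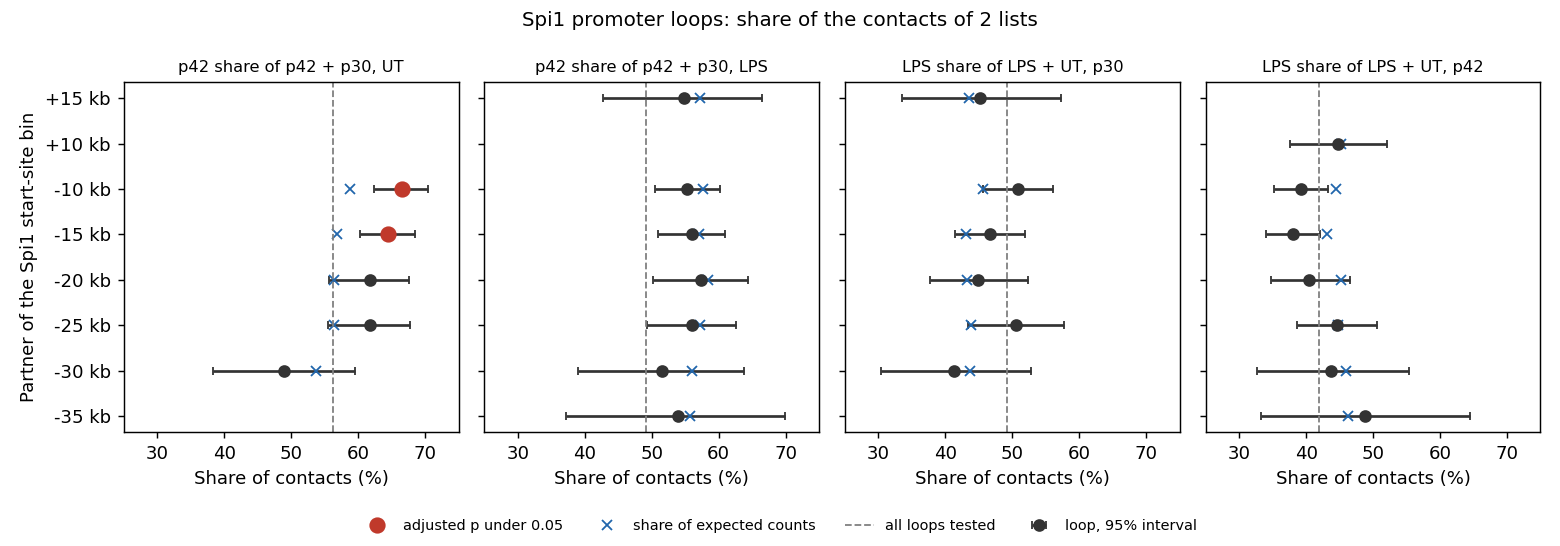
Share in percent of the first list named, p42 or LPS, in the contacts of each Spi1 promoter loop found in both lists of a comparison, with 95% exact binomial intervals; the dashed line is the share over all loops tested and crosses are the shares of the caller's expected counts. Red points mark the 2 loops called, both in untreated cells, where p42 held 64.5% and 66.5% of the contacts.

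The window of 150 kb on each side held 37 loops in untreated and 49 in LPS-treated p30 cells, and 104 and 51 in the p42 cells. Of the 123 different loops, 22 were in all 4 lists, 13 in 3, 26 in 2 and 62 in 1, of which 44 were in p42 UT only. Of the 22 shared loops, 20 had both bins between 35 kb upstream and 15 kb downstream of the start-site bin, that is, from Slc39a13 to exon 4 of Spi1. Loops that joined this stretch with a bin beyond it numbered 3 in untreated and 3 in LPS-treated p30 cells, and 29 and 5 in the p42 cells. The long loops were thus mostly those of the longest list, and with lists of equal size p42 UT held 47 loops in the window.

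The strongest loop in the window relative to expectation joined the Slc39a13 start site with a bin in the second intron of the canonical Spi1 transcript, 5 kb downstream of the start-site bin. It had 76 contacts in untreated and 81 in LPS-treated p30 cells, and 133 and 97 in the p42 cells, at 13.2, 18.1, 18.2 and 15.9 times the expected count. The URE bin itself had 6 loops in untreated and 7 in LPS-treated p30 cells, and 13 and 5 in the p42 cells. Apart from the start-site bin, it was joined in every list to the Slc39a13 bin, to the bin 5 kb upstream of the start-site bin and to the bins 5 and 10 kb downstream of it. Its contacts with the bin 5 kb upstream numbered 163, 162, 326 and 165, with only p42 UT high. Those with the Slc39a13 bin numbered 109, 117, 220 and 155. Those with the bin 5 kb downstream numbered 81, 46, 122 and 101, at 5.20, 4.14, 6.03 and 6.44 times the expected count. Both measures were lowest in p30 LPS, but the change with LPS in p30 was not called (exact adjusted p = 0.304). Of the long loops of the URE bin, the one to the Madd start site 85 kb downstream had 13 contacts in p30 UT and 12 in p42 UT.

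Of the 35 window loops tested in untreated cells, 4 were called, all higher in p42: both Spi1 promoter loops named above, and the URE loops to the Slc39a13 bin and to the bin 5 kb upstream (exact adjusted p = 0.0127 and 0.000907), against 1.34% of all loops tested. Of the 4, 3 had the URE bin as an end. Under LPS, 1 of 29 was called, the URE loop to the bin 5 kb downstream (101 contacts in p42 against 46 in p30, exact adjusted p = 0.00124), against 0.742% of all loops. With the expected counts as the null, none of these 5 loops passed. The URE loop to the Slc39a13 bin then lay 0.58 above the null on the log2 scale, against 0.65 with the null of all loops (exact adjusted p = 0.0847). The one to the bin 5 kb upstream lay 0.42 above it, against 0.64 (exact adjusted p = 0.167), and the one to the bin 5 kb downstream, under LPS, 0.64 against 1.19 (exact adjusted p = 0.825). Between LPS and UT, 0 of 26 loops in p30 and 0 of 42 in p42 were called, against 0.317% and 0.296% of all loops. With the expected counts as the null, 1 of the 42 was called, the URE loop to the bin 5 kb upstream (165 contacts in LPS against 326 in UT, 0.61 below the null on the log2 scale, exact adjusted p = 0.0256; 0.0550 with the null of all loops), against 0.0652% of all loops.

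**Figure D3:**
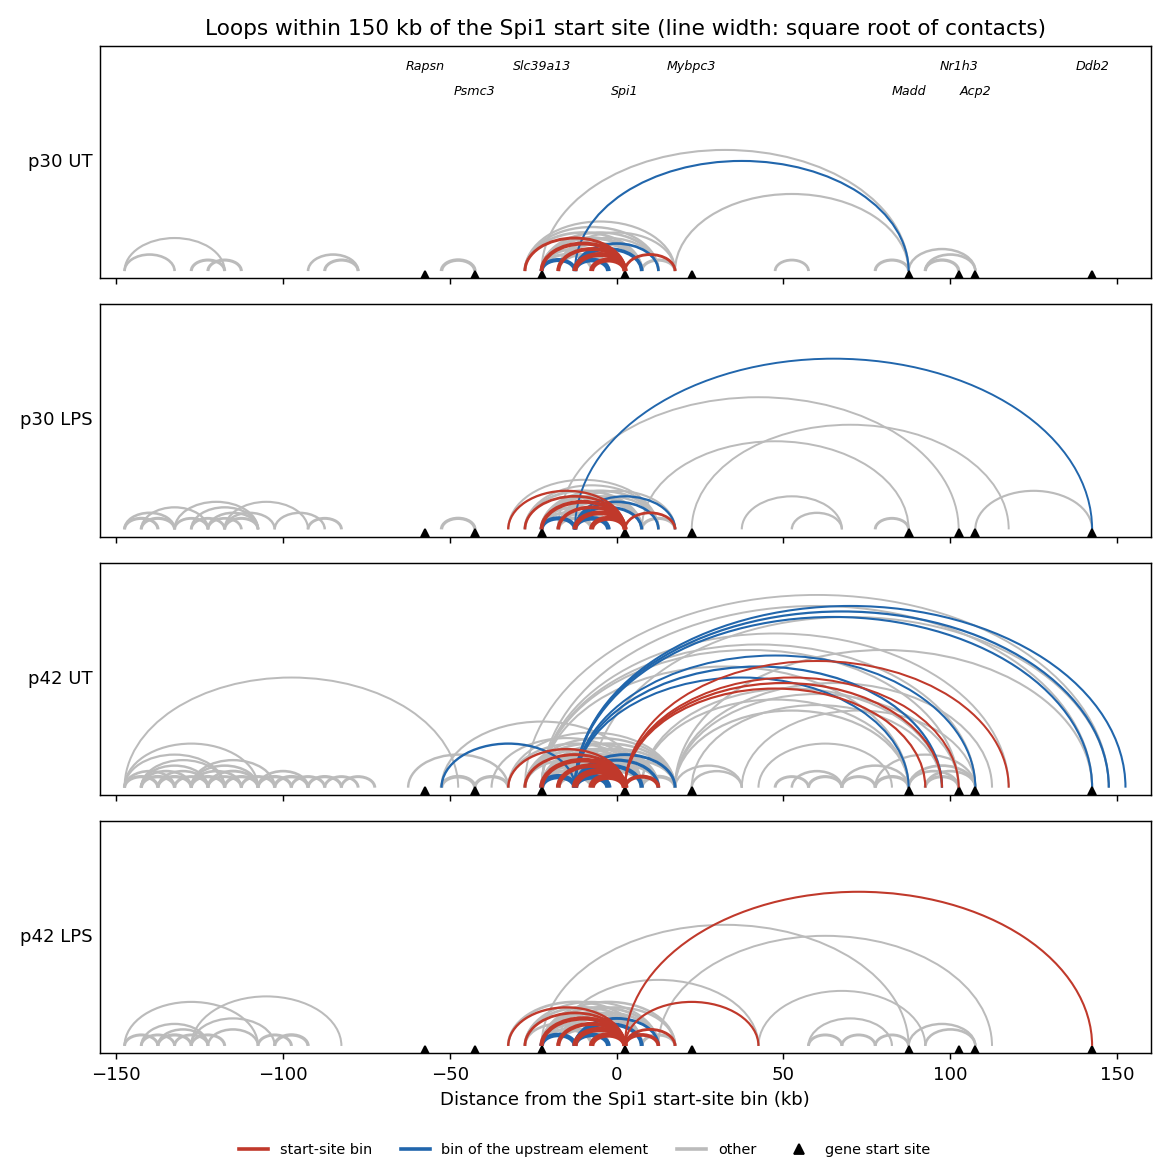
Loops with both bins within 150 kb of the Spi1 start-site bin, drawn as arcs by distance in kb, 1 panel per pooled list, with the line width following the square root of the contacts and triangles at gene start sites. Of the 35 loops with both bins between 35 kb upstream and 15 kb downstream, 20 were in all 4 lists, and 104 loops, most of the long ones included, were in p42 UT.

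Coverage, the number of reads per bin, stood high along the stretch from the URE bin to the promoter in all 4 lists. The start-site bin had 8419 reads in untreated and 8283 in LPS-treated p30 cells, and 13402 and 8438 in the p42 cells, or 3.50, 3.70, 4.60 and 4.35 times the mean of the peak bins of its list. The URE bin had 11570, 9589, 18284 and 9565 reads, or 4.81, 4.28, 6.28 and 4.93 times that mean. It was the highest bin of the region in p30 UT, p30 LPS and p42 UT, and in p42 LPS the bin beside it, 10 kb upstream, was slightly higher at 4.96. Relative to the peak bins, p42 was above p30 in untreated cells by 0.40 on the log2 scale at the start-site bin and by 0.39 at the URE bin, and under LPS by 0.23 and 0.20. Past a fold of 1.5, the size used to call a bin, neither bin was called.

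The largest difference between the isoforms lay between both bins. The bin 5 kb upstream stood at 2.76 (UT) and 2.93 (LPS) times the mean of the peak bins in p30 cells, and at 4.63 and 4.46 times it in the p42 cells. This was 1.68 times higher in p42 in untreated cells and 1.52 times under LPS. Of 13 bins from 55 kb upstream to 15 kb downstream with a value in every list, 2 were called higher in p42 in untreated cells, this one and the bin 10 kb upstream (1.503 times), and 2 under LPS, this one and the bin 10 kb downstream (1.51 times). None was called lower. The call of the bin 10 kb upstream lay at the threshold and ended (1.49 times) when coverage was divided by the median of the peak bins in all 4 lists. Per modelled contact both calls under LPS ended, at 1.21 times for the bin 5 kb upstream and 1.20 times for the bin 10 kb downstream. The bin 10 kb downstream is the intronic bin whose loop to the promoter was listed in p42 only, which did not show a difference between the isoforms. In untreated cells its coverage was 1.28 times higher in p42 and was not called. Over all peak bins in both lists, 4.78% were called higher and 3.43% lower in p42 in untreated cells, and 3.87% and 2.88% under LPS. In untreated cells 4 of the 13 bins were lower in p42, those 55, 45, 35 and 30 kb upstream, near Psmc3 and Slc39a13 (-0.24, -0.063, -0.10 and -0.035 on the log2 scale). Under LPS the first 2 of these were lower (-0.23 and -0.28) and the other two higher (0.13 and 0.17). Per modelled contact the signs of 5 of these 8 values turned: the bins 45, 35 and 30 kb upstream were higher in p42 in untreated cells (0.13, 0.091 and 0.16) and the last 2 of them lower under LPS (-0.21 and -0.16).

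Between LPS and UT none of the 13 bins was called in either isoform relative to the peak bins. The start-site bin differed by 0.08 in p30 and -0.08 in p42 on the log2 scale, and the URE bin by -0.17 and -0.35. The URE value of p42 was lower than those of all but 7.30% of the 40939 peak bins. Among all peak bins, LPS was called higher at 2.28% and lower at 0.865% in p30, and at 1.58% and 1.16% in p42. The scale matters for these signs: per modelled contact the median peak bin itself shifted by 0.16 (p42 against p30, UT), -0.33 (LPS), 0.18 (LPS against UT in p30) and -0.32 (in p42). On that scale p42 was below p30 under LPS at both bins, by -0.10 and -0.13, the URE bin changed by 0.039 with LPS in p30, and the fold of the start-site bin in untreated cells was 1.51. In p42, the URE bin was then past the threshold with LPS (1.59 times lower), as was the bin 45 kb upstream (1.57 times lower), where the median peak bin itself was lower by -0.32 on the log2 scale.

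**Figure D4:**
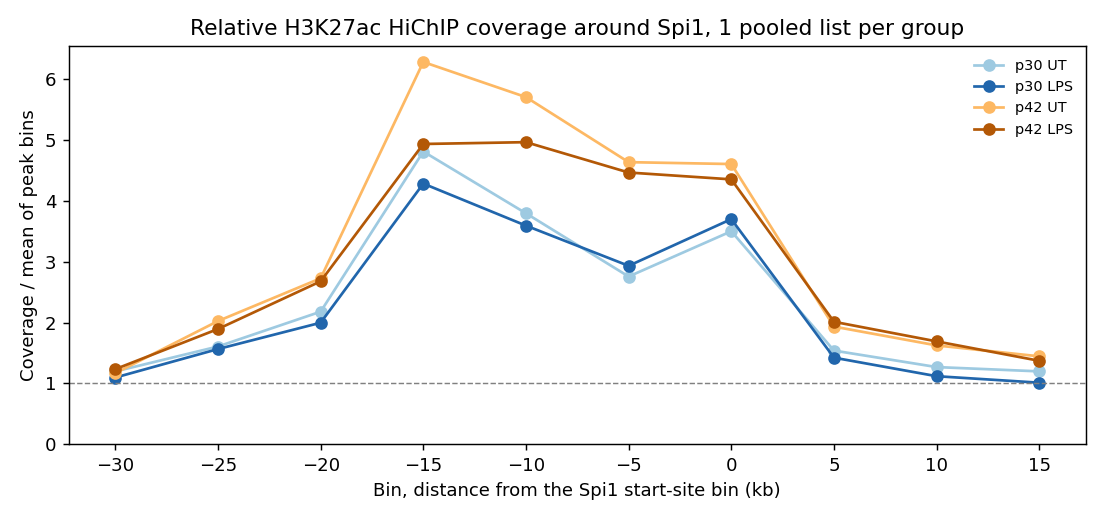
Reads per 5 kb bin relative to the mean of the peak bins of the same list, by distance from the Spi1 start-site bin in kb, 1 line per pooled list. From 15 kb upstream to the start-site bin all lists stood at 2.76 or higher, and both p42 lists lay above both p30 lists at each of these 4 bins.

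The genes whose start-site bins were most like that of Spi1 in relative coverage, by Euclidean distance over the 4 lists on the log2 scale and among 6224 genes with a peak at the start site in every list, were Chst12 (distance 0.07), Zfp523 (0.16), Vcpip1 (0.19), the chemokine gene Ccl9 (0.20) and Mcfd2 (0.21). Their promoter loops ranged from 2 (Vcpip1, p42 LPS) to 30 (Ccl9, p42 UT).

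Genes linked to PU.1 were followed at their start-site bins by the same measure. Over all 6224 genes the median difference between p42 and p30 was 0.08 on the log2 scale in untreated cells and -0.12 under LPS. In untreated cells 4% of them were called higher in p42 and 0.755% lower, and under LPS 1.27% and 3.76%. Of 16 genes of factors known to act on Spi1, 13 had a peak in every list, with medians of 0.22 and 0.23, and 3 (Erg, Lmo2 and Ikzf1) were called higher in p42 in untreated cells. Under LPS 3 were higher (Erg, Lmo2 and Cebpb) and 1 lower (Egr1, an immediate early gene, by -0.78 on the log2 scale), the last 2 of these being named after their values were seen. By the mean difference over both treatments, the largest values were those of the ETS factor gene Erg (1.71 and 1.62 times higher in p42, in untreated cells and under LPS), the adaptor gene Lmo2 (1.64 and 1.52) and Ikzf1, the gene of Ikaros (1.53 and 1.45). Of 10 genes of PU.1 partners, 5 had a peak in every list, with medians of 0.21 and 0.01, and 1 was called higher under each treatment, Cebpe, a C/EBP gene of granulocyte maturation (2.29 and 2.40). Cebpa stood at 1.16 and 1.45, where reads of the transgene cannot be told apart from the gene's own, and Gata1, the erythroid factor gene, at 0.86 and 0.72. Of 20 target genes of PU.1, 13 had a peak in every list, with medians of 0.36 and 0.09, and 3 were called higher in p42 in untreated cells (Cd14, Mpo and, named after its value was seen, Cd53 at 0.77 on the log2 scale) and 1 under LPS (Cd14). By the mean over both treatments, the largest differences were those of the LPS co-receptor gene Cd14 (3.02 and 1.88), the myeloperoxidase gene Mpo (1.82 and 1.36) and the Fc receptor gene Fcgr3 (1.49 and 1.17). For Spi1 itself the values were 1.32 and 1.18. Per modelled contact all genes lie lower under LPS by the same amount, Spi1 at -0.10 instead of 0.23 on the log2 scale. The LPS calls of Erg, Lmo2, Cebpb and Cd14 (0.70, 0.61, 0.60 and 0.91 relative to the peak bins) end on that scale. Those of Cebpe and Egr1 stay, and others such as Gata1 fall past the threshold downwards. The share of all genes called on that scale was not computed.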

How the data were processed

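H3K27ac HiChIP was performed by the authors with an MNase kit on 8 libraries. Per the study's methods, reads were mapped to mm39 with BWA-MEM 0.7.17 (version also in the submitters' processing notes), pairtools extracted the ligation events and dropped PCR duplicates, and FitHiChIP called the loops. The authors deposited 1 list per group in 5 kb bins; the way of pooling the 2 replicates is not given in the sources used here. In each deposited list the contact counts are unnormalized ligation products and coverage is a count of reads per bin. The expected counts were computed by the authors' caller from distance and coverage, so that a change in H3K27ac itself is partly taken into the expectation. Dividing the expected count by the modelled contacts gives the deposited probability, a fraction. The deposited coverage bias is a ratio to the mean of peak or of other bins. The deposited p-values and q-values were computed by the caller over all tested pairs, and the p-values recomputed from the counts differed from them by at most 0.987%.

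The Spi1 loops, the gene lists and the tests were chosen with earlier results of these data known. Genes are the 21751 protein-coding genes of GENCODE M39 with their canonical start sites. Per comparison, the contacts of each loop found in both lists were tested with a two-sided exact binomial test against the first list's share of the summed contacts over the loops tested, with Benjamini-Hochberg adjustment over all these loops and a threshold of 0.05. The change with LPS was compared between isoforms with an exact conditional test over the loops in all 4 lists. Expected counts of unlisted pairs were recovered from listed pairs at the same distance (largest residual of the logarithm 8.88e-15), and the limit is the highest count whose p-value stays above those listed. Coverage was divided by the mean of the peak bins and called past 1.5-fold, with no test. Genes named were the start-site bin, its partners, the genes at these bins, the 5 genes most like Spi1 and the 3 genes per list with the largest mean difference. Intervals are 95% Clopper-Pearson or exact Poisson intervals. Both tests were checked on simulated counts. Sequences were read from GRCm39. Python 3.11.15, SciPy 1.17.1, numpy 2.4.6, pandas 2.3.3 and matplotlib 3.10.9 were used.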

Additional observations from a re-analysis of the deposited data

Results flagged for a closer look

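Some values moved in opposite directions with LPS in p30 and in p42. Each group is 1 pooled list, and the difference was not tested. On the log2 scale, the number of Spi1 promoter loops changed by 0.2224 in p30 and by -0.1375 in p42, and the number of loops within 150 kb by 0.4053 and -1.028. The relative coverage of the start-site bin changed by 0.08001 in p30 and by -0.08115 in p42. The contacts per modelled contact at the 5 promoter loops in all 4 lists changed by 0.1904 in p30 and by -0.3191 in p42, where those of the whole set of loops found in all 4 lists changed by 0.29 and -0.28. The length of the whole lists moved the same way as the loop numbers, from 80489 to 94609 loops in p30 and from 158233 to 78591 in p42. In lists of equal size, promoter loops went from 6 to 7 with LPS in p30 and from 7 to 10 in p42. Loops in the window then went from 36 to 39 and from 47 to 51, so that both numbers rose with LPS in both isoforms. The p42 LPS list set that size and was not cut itself, and the cause was not tested. For single loops the corresponding test was made, and none of the 5 was called.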

How the results depend on the processing

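No paired analysis was possible because each deposited list pools both replicates of its group, and for the same reason no replicate could be left out. The number of promoter loops called in untreated cells, 2 of 5, became 4 with the modelled contacts as the null share (5.09% of all loops were then called, against 1.34%), 0 with the expected counts, and 0 of 3 with loops of at least 10 contacts and 20 kb, where the 2 called loops were too short to enter. Of the others, the URE loop was called lower with LPS in p42 with the modelled contacts as the null (exact adjusted p = 0.0269). This gave 1 call instead of 0, with 1.47% of all loops called. With the 2 bins beside the start-site bin counted in, there were 14 and 16 promoter loops in p30 (untreated and LPS) and 26 and 19 in p42, and lists of equal size gave 7 in p42 UT. Loops in the window became 31 (p30 LPS), 68 (p42 UT) and 29 (p42 LPS) at a q-value under 0.001, 47 in p42 UT with lists of equal size, and 32 (p30 LPS) and 65 (p42 UT) within 100 kb. With coverage per modelled contact, the differences between p42 and p30 at the start-site and URE bins were 0.59 and 0.58 in untreated cells and -0.10 and -0.13 under LPS, and the changes with LPS were 0.29 and 0.039 in p30 and -0.40 and -0.67 in p42. Extending these scalings to the 13 bins around the start site was chosen after seeing the data. Of the 2 bins past 1.5-fold between p42 and p30 in untreated cells, 1 was left with the median of the common peak bins. With coverage per modelled contact 1 bin instead of 2 was past it under LPS, another bin (45 kb upstream, lower in p42), and 2 instead of 0 with LPS in p42. The cause of these shifts was not tested beyond the shift of the median bin. The other 43 values that answer a comparison kept their direction and stayed within 1.5 times, or within their interval; of those for single loops 59 kept their side of the threshold, 3 gained a call and 2 lost it. The 2 that lost it were the URE loop and the loop 10 kb upstream with the expected counts. The highest count that would have stayed unlisted, between 8 and 14 contacts where it could be computed for the 6 promoter loops found in 1 list, limits what their absence elsewhere shows.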
